A study of Homo sapiens with 9 samples.

Results

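In hypoxic PANC-1 cells, 3 libraries of cells given rakicidin A (42 nM) were compared with 3 libraries of cells given the solvent DMSO (0.04%), out of 9 libraries in all, over every GENCODE gene of the deposited count table. The table holds 112171 features, of which 57820 are GENCODE genes, and 18122 of these had enough counts to be tested. In this comparison 18 of 23 chaperones of the endoplasmic reticulum (ER) rose and 4 fell, and 36 of 39 genes of its vesicle coats rose and 1 fell. Of 20 chemokines and interleukins, 15 rose and 2 fell. Of 38 kinetochore and checkpoint genes 2 rose and 32 fell, and of 24 HOX genes 2 rose and 22 fell. Over all genes tested, 32.7% rose and 33.7% fell. PANC-1 is an established cell line of human pancreatic ductal cancer. The remaining 3 libraries, from cells given BE-43547A1 (41 nM), entered the model and a closing comparison. All 9 were total RNA from cells that had fresh medium with the compound or solvent and then 12 h of hypoxia, so no library shows the cells in normal oxygen. Neither the oxygen level nor whether compound-treated cells also received DMSO is stated in the labels. Nor is it stated whether replicates were separate cultures, so a p-value here reflects only the variation among these libraries, part of which may be technical.

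Rakicidin A and BE-43547A1 are cyclic lipodepsipeptides made by bacteria, known for killing cultured cancer cells more readily under low oxygen. Cells that accumulate unfolded proteins in the ER respond through sensors in its membrane, ERN1 (also called IRE1), EIF2AK3 (PERK) and ATF6, which switch on chaperones, the breakdown of misfolded proteins and vesicle transport. PERK also belongs to the integrated stress response, in which the factor ATF4 raises genes of amino acid import, synthesis and tRNA charging. Part of the first response to many stresses runs through AP-1 and NF-kB, transcription factors that act on early response and cytokine genes.

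The 6 libraries held 26203326 to 34870860 counts on annotated features, 99.06 to 99.36% of them on GENCODE genes. The first principal component of log CPM carried 82.1% of the variance between them and separated the groups, at -77.5 to -75.4 for DMSO and 75.9 to 78.03 for rakicidin A. CPM is the usual unit of counts relative to library size, here scaled for library composition as well. The second component carried 4.92% and set rakicidin A replicate 3 apart, at -36.8 against 12.7 and 24.03 in the other libraries of its group. DMSO replicate 3 had 0.520% of its counts on mitochondrially encoded genes, while DMSO replicates 1 and 2 had 0.287 and 0.334% and the rakicidin A libraries 0.247 to 0.276%. Reads on no feature made up 20.3 to 20.8% with DMSO and 16.4 to 17.96% with rakicidin A. The cells carried the epithelial and mesenchymal transcripts of this line. Summed over 7 ductal and epithelial markers the libraries held 2841 to 3043 CPM with DMSO and 2425 to 2541 CPM with rakicidin A, and over 4 mesenchymal markers 4627 to 4801 and 4521 to 4605 CPM. Acinar markers reached at most 0.129 CPM and islet markers 0.145 CPM, with INS, SST and PPY at 0 in all 6. Leukocyte markers summed to 1.74 to 2.24 CPM with DMSO and 2.43 to 2.87 CPM with rakicidin A, with CD3E at 0. Fibroblast markers summed to 9.77 to 13.8 and 5.78 to 7.72 CPM, and endothelial markers to 0.153 to 0.284 and 0.291 to 0.511 CPM. The part of these shifts in any result was not tested. In bulk RNA, fewer cells of a type and less RNA per cell cannot be told apart.

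Most of the measured transcriptome moved. A gene is called higher or lower, and is said to have risen or fallen, at an adjusted p below 0.05 by edgeR's quasi-likelihood test, with Benjamini-Hochberg adjustment over all features tested. By this rule 12038 of the 18122 genes (66.4%) passed, 5932 higher (32.7%) and 6106 lower (33.7%). With scaling by total counts only, 3620 genes were higher and 9773 lower, 27.0% against 49.3% of calls being higher, and log2 fold changes moved by -0.36 at the median. The sign of a rise smaller than this depends on the scaling. With the composition scaling the median was -0.03, the median size 0.51 and the median standard error 0.11 on the log2 scale. At a change of at least 1 there were 4327 genes (23.9%), 2208 higher (12.2%) and 2119 lower (11.7%). The 2208 took 9.45% of all counts with DMSO and 23.8% with rakicidin A, while the 2119 took 3.47 and 0.996%. The 2119 genes thus held a small share of all counts in both groups. Among genes with a mean of 100 to 1000 CPM, 1403 rose and 463 fell, and among those of 1 to 10 CPM, 1138 rose and 2080 fell. At 1000 CPM or more, 52 rose and 11 fell. Changes of 4 or more were found for 85 higher and 29 lower genes.

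**Figure D1:**
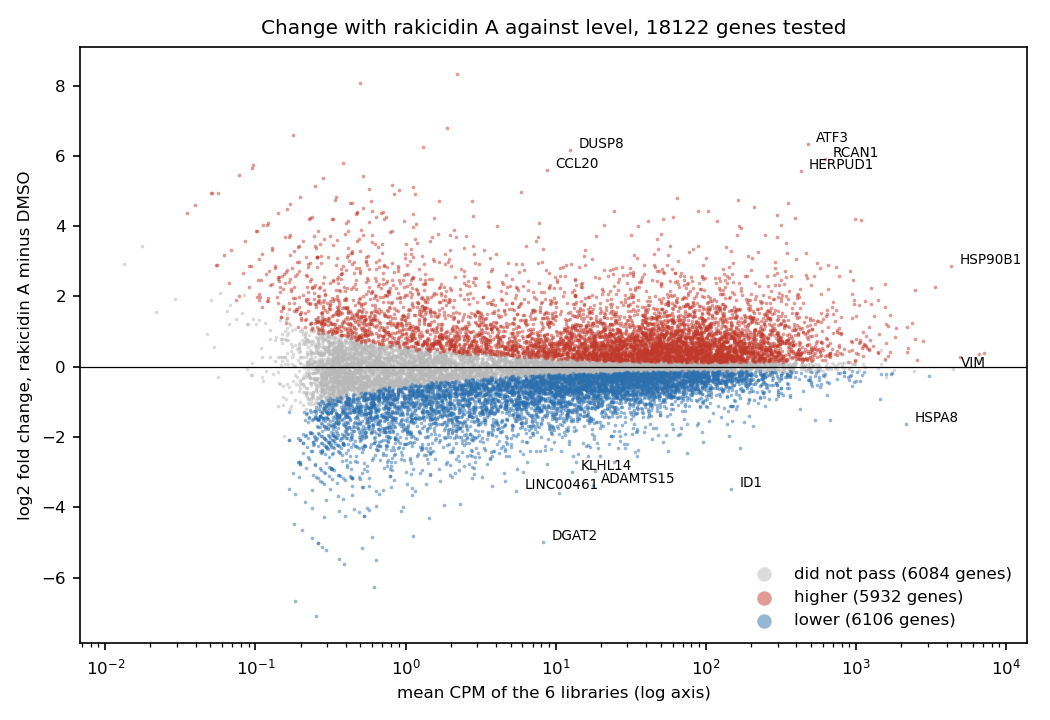
Log2 fold change (rakicidin A minus DMSO) against the mean CPM of the 6 libraries on a log axis, 1 point per tested GENCODE gene, red for higher, blue for lower and grey for not passing. The 5 largest rises and falls by the naming rule are labelled, with HSP90B1, HSPA8 and VIM. Beyond 100 CPM red points outnumber blue ones, and from 1 to 10 CPM blue points outnumber red ones. Points at the far left rest on few counts.

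The largest rises among genes that reached 10 CPM with rakicidin A were of stress transcription factors, ER proteins, feedback phosphatases and cytokine signalling. The first 15 are given, of 4005 such genes whose libraries did not overlap between the groups. Among all genes tested, 69.0% had libraries that did not overlap. ATF3, a stress-induced transcription factor, stood at 11.4, 11.1 and 12.6 CPM in the DMSO libraries and 948, 981 and 904 CPM in the rakicidin A libraries. RCAN1, an inhibitor of the calcium-dependent phosphatase calcineurin, stood at 20.6, 20.9 and 19.1 CPM in the DMSO libraries and 1205, 1200.2 and 1241 CPM in the rakicidin A libraries. HERPUD1, an ER membrane protein that serves the breakdown of misfolded proteins, stood at 17.8, 16.1 and 18.7 CPM in the DMSO libraries and 812, 834 and 861 CPM in the rakicidin A libraries. In all 3 the rakicidin A libraries lay within a narrow band far above DMSO, with log2 fold changes of 6.34 ± 0.08, 5.91 ± 0.06 and 5.57 ± 0.07 (± SE). The phosphatase DUSP8, which acts on MAP kinases, was nearly silent with DMSO, at 0.214, 0.253 and 0.54 CPM in the DMSO libraries and 22.1, 28.6 and 22.8 CPM in the rakicidin A libraries (6.16 ± 0.19). So was CCL20, a chemokine for lymphocytes and dendritic cells, at 0.306, 0.537 and 0.227 CPM in the DMSO libraries and 17.2, 17.9 and 16 CPM in the rakicidin A libraries (5.59 ± 0.16). These 2 genes had 34 and 35 counts over the DMSO libraries, so their ratios are less sure than those before.

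Of the other rises, IL1RL1 encodes the receptor of interleukin 33 and IL8 a neutrophil chemokine. IL1RL1 stood at 5.07, 4.42 and 3.89 CPM with DMSO and at 118, 127 and 126 CPM with rakicidin A (4.79 ± 0.08), and IL8 at 11.6, 11.9 and 12 CPM with DMSO and at 308, 341 and 299 CPM with rakicidin A (4.74 ± 0.08). HBEGF, a membrane-bound ligand of the epidermal growth factor receptor, stood at 8.31, 10.0 and 9.26 CPM with DMSO and at 192, 207 and 196 CPM with rakicidin A (4.43 ± 0.07). In each of these the lowest rakicidin A library was many times the highest DMSO library. Given as mean ± SD over the 3 libraries of each group, DNAJB9, a cochaperone of BiP, rose from 26.9 ± 2.11 to 674 ± 18.9 CPM, and DDIT3, the factor CHOP of prolonged ER stress, from 17 ± 1.36 to 399 ± 14 CPM. The small Maf protein MAFF rose from 7.77 ± 0.358 to 168 ± 1.94 CPM, and the nuclear protein CSRNP1 from 5.96 ± 0.658 to 115 ± 5.64 CPM. DUSP5, a phosphatase of nuclear ERK, rose from 28.3 ± 1.21 to 568 ± 16.5 CPM. RAB39B, a vesicle GTPase, rose from 2.18 ± 0.116 to 46.9 ± 4.7 CPM. The list also holds ZSCAN12P1, a transcribed pseudogene (4.97 ± 0.18), which may share reads with the gene it derives from. The smallest of the 15 changes was 4.27 and the next gene outside had 4.24.

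The 15 largest falls are given as well, out of 3062 genes by the same rule, and all of them but DGAT2 were smaller in size than the smallest of the 15 rises. DGAT2, an enzyme of triglyceride synthesis, stood at 16.4, 16.5 and 14.9 CPM in the DMSO libraries and 0.546, 0.256 and 0.773 CPM in the rakicidin A libraries (-4.98 ± 0.21). ID1, an inhibitor of basic helix-loop-helix factors and a target of BMP signalling, stood at 312, 273 and 225 CPM in the DMSO libraries and 26, 22.6 and 24 CPM in the rakicidin A libraries (-3.48 ± 0.11). SKP2, which marks the cell cycle inhibitor p27 for breakdown, stood at 32.7, 32.3 and 31.6 CPM in the DMSO libraries and 3.97, 4.19 and 4.25 CPM in the rakicidin A libraries (-2.96 ± 0.09). Of these 3, ID1 varied most among the DMSO libraries. CDKN2C, an inhibitor of CDK4 and CDK6, fell from 59 ± 0.54 to 10.1 ± 0.831 CPM. ADAMTS15, a secreted matrix protease, fell from 32.1 ± 2.68 to 3.14 ± 0.518 CPM, and TRIM6, a ubiquitin ligase, from 42.7 ± 2.41 to 6.49 ± 0.333 CPM. SAMD9, an interferon-responsive gene, fell from 23.7 ± 2.17 to 3.6 ± 0.32 CPM, and PSRC1, a spindle protein, from 27.9 ± 1.43 to 4.8 ± 0.451 CPM. B3GNT1, a glycosyltransferase gene, fell from 22.2 ± 2.46 to 3.8 ± 0.137 CPM. The transcription-related genes of this group were TSHZ1 (-2.76 ± 0.15), SKIDA1 (-2.99 ± 0.15) and ZNF737 (-2.70 ± 0.13), the last a zinc finger gene with close relatives that may share its reads. The others were the noncoding RNA LINC00461 (-3.55 ± 0.14), KLHL14 (-3.01 ± 0.11) and IER5L (-2.53 ± 0.09). The smallest fall of the 15 was -2.53 and the next gene outside had -2.48. Over the 30 genes the largest adjusted p by edgeR was 7.29e-12.

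**Figure D2:**
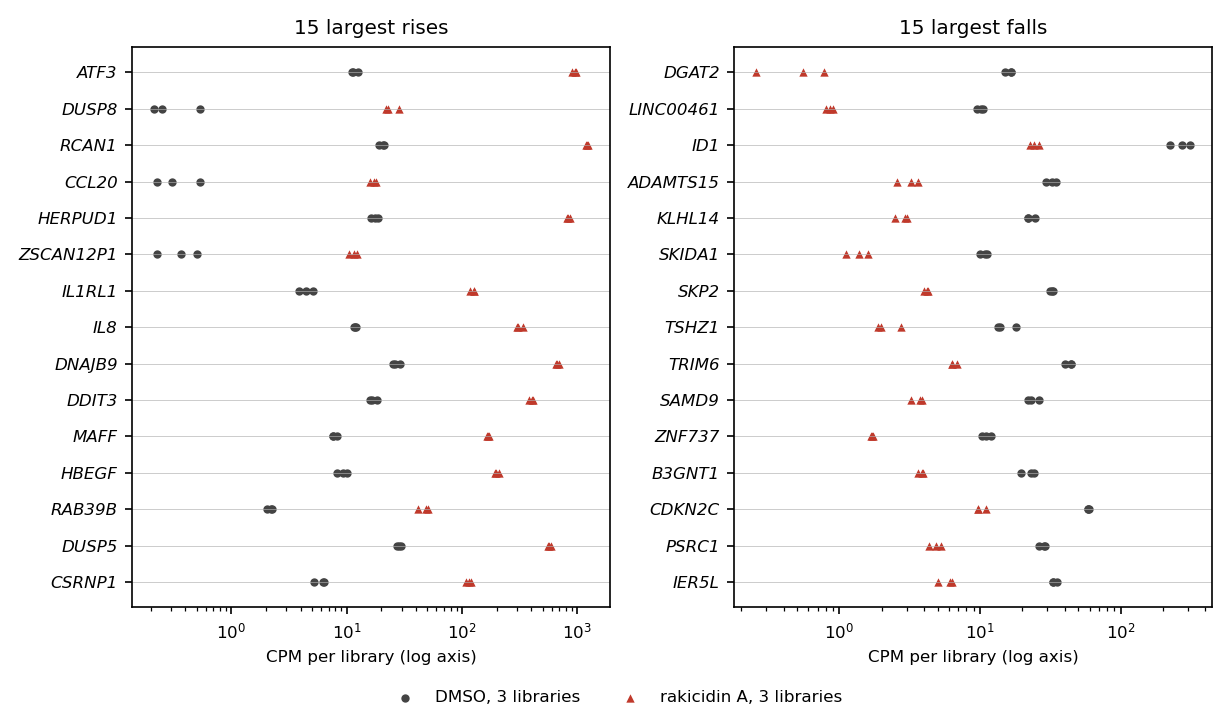
CPM in each of the 6 libraries on a log axis for the 15 largest rises (left) and the 15 largest falls (right), grey circles for DMSO and red triangles for rakicidin A. Genes were drawn only from those whose groups do not overlap, so the gap in every row follows from the choice. The spread within a group is widest for genes near or under 1 CPM, such as DUSP8, CCL20 and DGAT2.

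Measured in CPM rather than in ratio, the largest gain was that of HSP90B1, the ER form of the HSP90 chaperone, at 973, 1063 and 1074 CPM in the DMSO libraries and 7567, 7375 and 7607 CPM in the rakicidin A libraries (2.86 ± 0.06). ERRFI1, which restrains the epidermal growth factor receptor, rose from 1149 ± 32.7 to 5571 ± 183 CPM, and BIRC3, an inhibitor of apoptosis and NF-kB target, from 891 ± 69.2 to 4077 ± 69.6 CPM. SLC38A2, a neutral amino acid transporter, rose from 512 ± 33.8 to 2626 ± 94.9 CPM. HSPA5 (BiP), the main chaperone of the ER lumen, stood at 96.7, 92.5 and 152 CPM in the DMSO libraries and 1928, 2119 and 2076 CPM in the rakicidin A libraries (4.16 ± 0.14); DMSO replicate 3 was the highest of its group and still far below every rakicidin A library. The calcium-binding lectin chaperones CANX and CALR rose from 1396 ± 69.4 to 3302 ± 47.8 CPM and from 731 ± 39.5 to 2375 ± 115 CPM, and the tyrosine kinase ABL2 rose from 100.1 ± 2.83 to 1853 ± 95.4 CPM. The scaffold protein AKAP12 rose by 0.38 and RN7SK, the small nuclear RNA that restrains transcription elongation, by 0.39, but with total counts alone neither passed (0.02 and 0.04), and RN7SK overlapped between the groups. RN7SK also did not pass without rakicidin A replicate 3 (0.32, adjusted p = 0.0572) or with DESeq2 (0.41, adjusted p = 0.0737).

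The largest loss in CPM was that of HSPA8, the constitutive cytosolic chaperone of the HSP70 family, at 3434, 3380.5 and 2974 CPM in the DMSO libraries and 1062, 1077 and 995 CPM in the rakicidin A libraries (-1.64 ± 0.07). TOP2A, the topoisomerase of dividing cells, fell from 986 ± 26.5 to 345 ± 4.17 CPM, and CD59, which shields cells from complement, from 787 ± 57.5 to 274 ± 13.7 CPM. UACA, a regulator of stress-induced death, fell from 1881 ± 84.1 to 1002 ± 39.3 CPM, and the arrestin family gene ARRDC3 from 586 ± 38.8 to 255 ± 8.11 CPM. The tubulin gene TUBB (-0.80 ± 0.05), PTMA (-0.55 ± 0.05), TMEM123 (-0.43 ± 0.05) and the keratin gene KRT19 (-0.41 ± 0.07) fell by less. AHNAK, a large scaffold protein gene, fell by 0.25. It stood at 2974, 2933 and 4054 CPM in the DMSO libraries and 2513, 2872 and 2972 CPM in the rakicidin A libraries, and the groups overlapped. Without DMSO replicate 3, its highest library, the value was -0.08 (edgeR adjusted p = 0.231). It was also lost without rakicidin A replicate 1 (-0.17, adjusted p = 0.177) or 2 (-0.26, adjusted p = 0.0560), with the 6 libraries alone (-0.23, adjusted p = 0.0677) and with DESeq2 (-0.24, adjusted p = 0.152).

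Some abundant transcripts changed little with the composition scaling. For 1296 genes (7.15%) the 95% interval of the log2 fold change lay within -0.25 and 0.25. Those with the highest CPM were VIM, the intermediate filament of mesenchymal cells (-0.07 ± 0.05), KTN1, an anchor of kinesin (-0.09 ± 0.06), the lactate dehydrogenase gene LDHA (0.07 ± 0.07), the integrin gene ITGB1 (-0.05 ± 0.05) and the pseudogene NPM1P27 (0.08 ± 0.07), whose reads may come from NPM1. VIM stood at 4607, 4421 and 4476 CPM in the DMSO libraries and 4315, 4332 and 4242 CPM in the rakicidin A libraries. For VIM and KTN1 every rakicidin A library lay below every DMSO library, by a small margin. All 5 fell with total counts alone, by 0.28 to 0.45, and LDHA rose without DMSO replicate 3 (0.17, adjusted p = 0.00675).

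The ER response was broad, and the RefSeq promoters of some of its genes hold sequence elements known from it. The 5 promoters printed were chosen because they hold matches. The stretches that follow are the 250 bases before the listed gene start (build GRCh38.p14), in lower case, with matches to 4 elements in capitals. The ER stress element (ERSE) is CCAAT, then 9 bases of any kind, then CCACG. Its short form ERSE-II is ATTGG, then 1 base of any kind, then CCACG, the core of the unfolded protein response element (UPRE) is TGACGTGG and the core of the C/EBP-ATF element (CARE) is TGATGNAA. Both strands were searched for exact matches only, and N is any base. A copy with any other letter changed is neither marked nor counted. HSPA5 (chr9:125241344-125241593, minus strand) and HSP90B1 (chr12:103930160-103930409, plus strand) are shown for the chaperones, HERPUD1 (chr16:56931892-56932141, plus strand) for protein breakdown, SEC24A (chr5:134648535-134648784, plus strand) for vesicle transport and ASNS (chr7:97872409-97872658, minus strand), the asparagine synthetase gene, for amino acid supply.
HSPA5: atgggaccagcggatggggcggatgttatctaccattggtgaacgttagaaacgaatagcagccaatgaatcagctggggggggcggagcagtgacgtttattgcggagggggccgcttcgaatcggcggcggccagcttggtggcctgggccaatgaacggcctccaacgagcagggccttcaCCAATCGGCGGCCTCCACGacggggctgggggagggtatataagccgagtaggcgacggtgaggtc
HSP90B1: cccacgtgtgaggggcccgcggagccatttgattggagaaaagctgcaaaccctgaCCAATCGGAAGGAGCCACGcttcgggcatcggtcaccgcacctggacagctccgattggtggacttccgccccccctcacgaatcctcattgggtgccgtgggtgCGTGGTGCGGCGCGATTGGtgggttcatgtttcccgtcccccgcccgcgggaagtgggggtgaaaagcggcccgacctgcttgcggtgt
HERPUD1: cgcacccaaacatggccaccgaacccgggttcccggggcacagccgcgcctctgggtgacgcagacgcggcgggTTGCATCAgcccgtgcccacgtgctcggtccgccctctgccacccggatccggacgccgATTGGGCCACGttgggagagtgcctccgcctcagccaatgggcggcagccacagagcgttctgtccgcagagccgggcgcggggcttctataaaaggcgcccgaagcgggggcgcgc
SEC24A: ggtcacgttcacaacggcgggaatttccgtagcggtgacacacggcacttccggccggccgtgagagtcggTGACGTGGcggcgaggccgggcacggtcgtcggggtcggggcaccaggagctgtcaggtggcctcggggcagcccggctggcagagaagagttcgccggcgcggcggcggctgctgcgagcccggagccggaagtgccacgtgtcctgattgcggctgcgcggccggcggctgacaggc
ASNS: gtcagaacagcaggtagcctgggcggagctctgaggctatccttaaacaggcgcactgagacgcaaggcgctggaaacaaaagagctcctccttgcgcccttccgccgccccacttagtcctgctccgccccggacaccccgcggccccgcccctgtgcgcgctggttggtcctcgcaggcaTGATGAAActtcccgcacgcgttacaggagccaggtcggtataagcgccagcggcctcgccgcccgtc
Positions are given for the base of an element that lies farthest from the start. HSPA5 holds 1 exact ERSE, at 66 bases. HSP90B1 holds 2, at 194 bases on the strand of the gene and at 89 bases on the opposite strand. HERPUD1 holds an ERSE-II at 117 bases and a CARE core on the opposite strand at 176 bases. SEC24A holds a UPRE core at 179 bases, and ASNS a CARE core at 68 bases.

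The full ERSE was rare, and most genes that held it rose. Within 250 bases before to 50 after a listed start it was found for 25 of 27305 RefSeq genes (0.0916%) and for 16 of the 11221 tested genes with a promoter in the table. Of these 16, 14 rose and 13 rose by at least 1, none fell, and SYNPO (-0.02 ± 0.12) and ZNF17 (-0.26 ± 0.13) did not pass. Both turned on DMSO replicate 3, without which SYNPO was higher (0.23, edgeR adjusted p = 0.0113) and ZNF17 lower (-0.36, edgeR adjusted p = 0.0155), and both were lower with total counts alone (-0.37 and -0.62). Over all 11221 genes, 12.1% rose by at least 1. The 15 sites (GRCh38.p14) are printed 5′ to 3′ on the strand given, with the fixed letters in capitals, to show how the 9 bases between them vary.
HSPA5, chr9:125241391-125241409, minus strand: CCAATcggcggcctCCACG
HSP90B1, at 194 bases, chr12:103930216-103930234, plus strand: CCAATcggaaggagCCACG
HSP90B1, at 89 bases, chr12:103930321-103930339, minus strand: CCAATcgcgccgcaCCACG
CALR, chr19:12938384-12938402, minus strand: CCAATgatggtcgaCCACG
CANX, chr5:179698778-179698796, plus strand: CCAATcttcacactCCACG
XBP1, chr22:28800603-28800621, minus strand: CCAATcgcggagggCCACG
CRELD2 and ALG12, chr22:49918554-49918572, minus strand: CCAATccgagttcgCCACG
SERP1 and EIF2A, chr3:150546710-150546728, plus strand: CCAATtcgctgtctCCACG
FICD, chr12:108515123-108515141, plus strand: CCAATgggagtggcCCACG
PDIA6, chr2:10812853-10812871, minus strand: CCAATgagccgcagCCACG
ERO1LB, chr1:236282183-236282201, plus strand: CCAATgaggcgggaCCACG
TRIM5, chr11:5685115-5685133, plus strand: CCAATggcatttctCCACG
TMEM120A, chr7:75994680-75994698, plus strand: CCAATggggaaaggCCACG
SYNPO, chr5:150640581-150640599, minus strand: CCAATctacccgccCCACG
ZNF17, chr19:57410920-57410938, plus strand: CCAATgaagcccctCCACG
Every ERSE holds a CCAAT box, so matches to the box alone include these. CRELD2 and ALG12 share 1 site between neighbouring starts, and so do SERP1 and EIF2A, so these pairs do not count separately. FICD, which modifies BiP with AMP, rose from 7.03 ± 0.573 to 87 ± 5.99 CPM (3.63 ± 0.09). CRELD2, a secreted ER stress protein, rose from 27.4 ± 2.96 to 266 ± 13.2 CPM (3.28 ± 0.07), while its neighbour ALG12, a mannosyltransferase of N-glycan assembly, rose by 1.80. XBP1, the factor spliced by IRE1, rose by 3.09 and the translocon-associated gene SERP1 by 2.57. Besides SYNPO and ZNF17, the ERSE genes not known for the secretory pathway were EIF2A, of translation initiation (1.67 ± 0.06), TRIM5, a restriction factor of retroviruses (2.24 ± 0.06), and TMEM120A, which rose by 0.37 but not with total counts alone (0.01, adjusted p = 0.914). A match is a description of the letters, not a site shown to be bound.

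ERSE-II was found for 14 tested genes, of which 10 rose and 7 rose by at least 1. They were HERPUD1, SDF2L1 (3.34) and HYOU1 (2.48) of the ER, the zinc finger gene ZNF143 (2.76), RAD9A of the DNA damage checkpoint (2.36), CAMTA1 (1.99) and NAV2 (1.46). GYS1 and RUVBL2, which share 1 site, fell by 0.32 and 0.33. HYOU1, the ER chaperone of the HSP110 family, has 2 such sites. Most genes of the ER response held no exact match to either form. ERSE was found for 5 of 20 ER chaperones with a promoter in the table (25%), 2 of 20 disulfide isomerases and oxidases (10%) and 1 of 17 sensors and factors, and for 0 of 24 genes of ER breakdown, 0 of 22 of translocation and 0 of 35 of the vesicle coats. ERSE-II was found for 2 of these chaperones, 1 gene of ER breakdown and no gene of the other 4 lists. Of the 15 largest rises 12 had a promoter in the table, with ERSE and the UPRE core in 0, ERSE-II in 1 and the CARE core in 2. Commoner elements lay on genes of both directions. The UPRE core was found in 0.927% of all RefSeq promoters, the CARE core in 4.46%, the AP-1 motif TGANTCA in 9.37% and the NF-kB motif in 7.09%. Of 137 tested genes with a UPRE core, 35 (25.5%) rose by at least 1 and 13 fell by at least 1, and of 310 with a CARE core, 86 (27.7%) and 29. With an AP-1 motif 149 of 784 genes (19.0%) rose by at least 1 and 71 fell, and with an NF-kB motif 140 of 1015 (13.8%) and 102. The share among genes with a CCAAT box was 13.9%, beside 12.1% of all genes with a promoter.

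**Figure D3:**
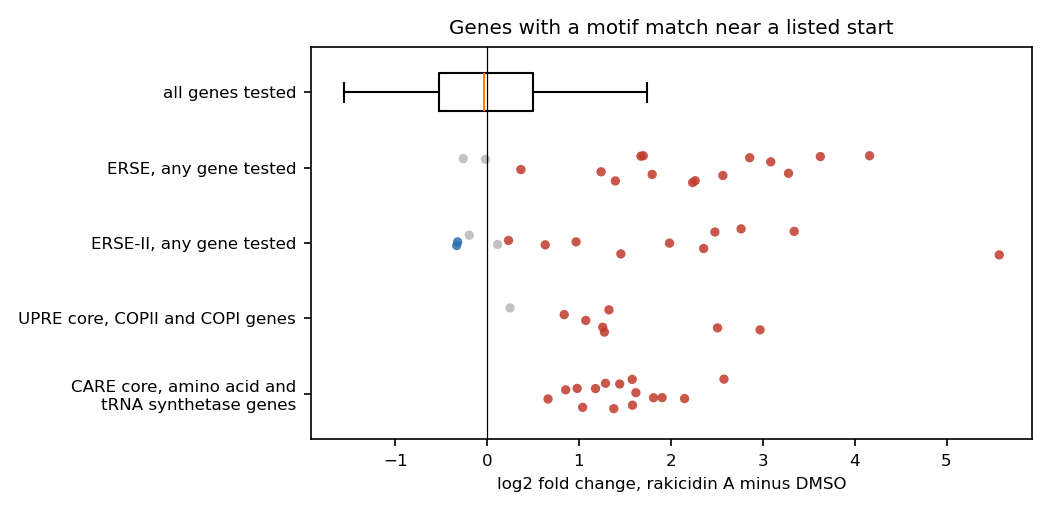
Log2 fold change of genes whose RefSeq promoter window holds a motif, 1 point per gene, red for higher, blue for lower and grey for not passing. The UPRE core row holds only vesicle coat genes, and the CARE core row only genes of amino acid supply and cytosolic tRNA charging. Most members of those lists rose. Over all tested genes with these cores the medians were 0.25 and 0.31. The box shows all tested genes (quartiles, with the median as a line and whiskers at the 5th and 95th percentile). Nearly all ERSE points lie above 1, while the quartiles of all genes lie at -0.52 and 0.50.

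Among sensors and factors of the unfolded protein response, rises far outnumbered falls. After the median of a list, square brackets hold the count of rises and then of falls when libraries were scaled by total counts only. Medians are to be read against -0.03 over all genes, and counts against 32.7% higher and 33.7% lower. The median also varied with level, at -0.22 for genes of 1 to 10 CPM and 0.27 for those of 100 to 1000 CPM. The part of level in the lists was not tested. Of 17 measured sensors and factors, 11 rose and 1 fell (median 1.82, [11, 5]). The sensors ERN1 (2.70 ± 0.07), EIF2AK3 (3.75 ± 0.07) and ATF6 (1.37 ± 0.06) all rose. EIF2AK3 stood at 36.4, 35.6 and 31.4 CPM in the DMSO libraries and 461, 457 and 469 CPM in the rakicidin A libraries, with no overlap. Downstream, ATF4 rose by 2.33. PPP1R15A (GADD34), which restores translation by dephosphorylating eIF2α, rose from 43.1 ± 2.97 to 554 ± 33.1 CPM, and TRIB3, a pseudokinase that restrains ATF4 and CHOP, from 12.7 ± 0.537 to 225 ± 16.8 CPM. MBTPS2, the protease that releases ATF6, was the 1 gene that fell (-0.83 ± 0.09). ERN1, ATF6, ATF4 and the ERSE genes are named beyond the naming rule, with their values known.

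Most chaperones of the ER lumen rose. Of 23 measured genes, 18 rose and 4 fell (median 1.52, [16, 5]). MANF, a secreted protein of ER stress, stood at 36.9, 39.4 and 33.9 CPM in the DMSO libraries and 609.9, 590.3 and 591 CPM in the rakicidin A libraries (4.02 ± 0.07). HYOU1 stood at 300.1, 289 and 287 CPM in the DMSO libraries and 1667, 1589.9 and 1626 CPM in the rakicidin A libraries (2.48 ± 0.05). Both groups were tight, and every rakicidin A library lay above every DMSO library. The 4 that fell were the prolyl isomerases FKBP9 (-0.67 ± 0.06) and FKBP7 (-0.60 ± 0.23), SDF2 (-0.19 ± 0.08) and the collagen chaperone SERPINH1 (-0.70 ± 0.07). The libraries of FKBP7 overlapped, and 2 rather than 4 fell with DESeq2 (FKBP7 -0.59, adjusted p = 0.0513, SDF2 -0.17, adjusted p = 0.0793) and without DMSO replicate 1 or rakicidin A replicate 2 or 3. Of the disulfide isomerases and ER oxidases, among 21 measured genes, 14 rose and 4 fell (median 0.40, [9, 6]). PDIA4 rose from 435 ± 18.4 to 2059 ± 76.9 CPM and P4HB from 493 ± 53.3 to 1807 ± 14 CPM, both isomerases that form disulfide bonds. The ER oxidase ERO1LB (2.27 ± 0.07) and TXNDC11 (2.05 ± 0.07) rose as well. TMX4 (-0.67 ± 0.06) and the peroxidase GPX7 (-1.23 ± 0.13) fell.

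Genes that bring proteins into the ER rose in most cases. Among those of signal recognition, translocation and signal peptide cleavage, of 25 measured genes, 19 rose and 4 fell (median 0.97, [17, 6]). SEC61A1, the channel subunit, stood at 159, 144 and 148 CPM in the DMSO libraries and 441, 459.7 and 447 CPM in the rakicidin A libraries (1.58 ± 0.06). The receptor of the signal recognition particle rose in both subunits, SRPR (1.44 ± 0.06) and SRPRB (1.66 ± 0.07), and SSR2 of the translocon-associated complex rose from 88 ± 4.07 to 231 ± 2.84 CPM. TRAM2 (-0.49 ± 0.06), SEC61A2 (-0.35 ± 0.12), SRP9 (-0.27 ± 0.08) and SPCS1 (-0.25 ± 0.07) fell. Of these SEC61A2 did not pass without DMSO replicate 3 (-0.27, edgeR adjusted p = 0.0791) or rakicidin A replicate 2 (-0.29, edgeR adjusted p = 0.0849), and the libraries of SRP9 overlapped. The ER breakdown list was led by HERPUD1. Of 33 measured genes, 25 rose and 2 fell (median 0.78, [23, 8]). SELK and VIMP, selenoproteins that bind the retrotranslocation machinery, rose from 14.5 ± 1.64 to 140.5 ± 4.73 CPM and from 72.4 ± 5.7 to 507 ± 11.7 CPM, and SEL1L, the partner of the ubiquitin ligase SYVN1, from 139 ± 7.75 to 807 ± 26.2 CPM. NGLY1, which strips N-glycans from exported proteins (-0.58 ± 0.07), and ERLIN2 (-1.03 ± 0.13) fell.

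Nearly every gene of the vesicle coats rose. Of 39 measured genes, 36 rose and 1 fell (median 1.18, [34, 1]). COPII carries cargo out of the ER and COPI returns it from the Golgi. SEC24A, a cargo adaptor of COPII, stood at 63.1, 63 and 68.6 CPM in the DMSO libraries and 489, 508 and 531 CPM in the rakicidin A libraries (2.97 ± 0.06). SEC24D rose from 40.8 ± 1.27 to 227 ± 7.89 CPM, the outer coat gene SEC31A from 147 ± 1.04 to 559 ± 14 CPM and the GTPase ARF4 from 117 ± 4.97 to 443 ± 12.6 CPM. COPG2, a paralog of the COPI subunit COPG1, fell (-0.50 ± 0.10). The KDEL receptors KDELR1 (0.19 ± 0.10) and KDELR3 (0.25 ± 0.12), which retrieve ER proteins, did not pass, though both rose without DMSO replicate 3 (edgeR, 0.35, adjusted p = 0.000250, and 0.37, adjusted p = 0.0122). KDELR3 also rose without rakicidin A replicate 2 (0.38, edgeR adjusted p = 0.0160). Of the 35 members with a promoter in the table, 8 (22.9%) held a UPRE core, against 1.22% of tested genes with a promoter. They were SEC24A, STX5, COPA, COPB1, COPB2, SEC16A, SEC23A and KDELR3, and all but KDELR3 rose, by 0.84 to 2.97. Nearly all of this list rose in any case. Of all 137 tested genes with a UPRE core, 72 rose and 31 fell. Of the 22 translocation genes with a promoter, 4 (18.2%) held it, and of the 24 of ER breakdown and the 17 sensors and factors, 2 and 0.

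For N-glycan assembly and the hexosamine pathway that feeds it, of 33 measured genes, 22 rose and 7 fell (median 0.60, [21, 11]). The hexosamine enzymes PGM3 and GFPT1 rose from 105 ± 10.1 to 632 ± 12.4 CPM and from 232 ± 6.09 to 1068 ± 46.4 CPM, and ALG2 of the mannose steps from 24.6 ± 1.0 to 125 ± 6.79 CPM. MAGT1, a subunit of the transferase that attaches glycans, rose by 1.77. ALG6, which adds the first glucose (-1.18 ± 0.08), and DOLK, the dolichol kinase gene (-1.58 ± 0.11), were the falls with the smallest p.

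Genes of amino acid import, synthesis and tRNA charging in the cytosol rose in most cases. Among transporters, of 17 measured genes, 16 rose and 1 fell (median 1.04, [12, 1]). SLC7A11, the cystine importer, stood at 59.7, 54.2 and 52.4 CPM in the DMSO libraries and 619, 619 and 652 CPM in the rakicidin A libraries (3.51 ± 0.08). Its partner chain SLC3A2 rose from 144 ± 8.51 to 375 ± 26.6 CPM and SLC38A1 from 419.7 ± 7.41 to 1026 ± 30.9 CPM, while the taurine carrier SLC6A6 fell (-0.85 ± 0.06). In amino acid synthesis and one-carbon metabolism, of 19 measured genes, 15 rose and 1 fell (median 0.66, [11, 4]). The aspartate aminotransferase GOT1 rose from 73.3 ± 1.25 to 438 ± 16.8 CPM, ASNS from 131 ± 4.74 to 579 ± 11.2 CPM, the mitochondrial folate enzyme MTHFD2 from 314 ± 27.5 to 779 ± 18.7 CPM and PYCR1 of proline synthesis from 107 ± 9.15 to 284 ± 29 CPM. SHMT1, the cytosolic serine hydroxymethyltransferase, fell (-0.75 ± 0.11).

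For cytosolic aminoacyl-tRNA synthetases, of 20 measured genes, 16 rose and 1 fell (median 0.83, [12, 5]). GARS, for glycine, stood at 402, 391 and 429 CPM in the DMSO libraries and 1527, 1514 and 1540.4 CPM in the rakicidin A libraries (1.91 ± 0.06). CARS (1.81 ± 0.05), WARS (1.90 ± 0.06) and SARS (1.45 ± 0.05), for cysteine, tryptophan and serine, rose as well, and QARS, for glutamine, fell (-0.29 ± 0.06). For their mitochondrial counterparts, of 17 measured genes, 5 rose and 9 fell (median -0.16, [2, 12]). AARS2 (-0.67 ± 0.09) and SARS2 (-0.96 ± 0.13) fell, and YARS2 (0.57 ± 0.07) and WARS2 (0.63 ± 0.10) rose. The difference between the 2 lists was not tested. A CARE core was found for 7 of 16 cytosolic synthetase genes with a promoter (43.8%). It was found for 5 of 14 transporter genes (35.7%) and 3 of 12 synthesis genes (25%), against 2.76% of tested genes with a promoter. The synthetases were AARS, CARS, GARS, IARS, MARS, NARS and TARS, and the transporters SLC1A4, SLC1A5, SLC38A1, SLC3A2 and SLC7A1. The 15 genes, with ASNS, GOT1 and MTHFD1L, all rose, by 0.66 to 2.58. Most members of these 3 lists rose in any case. Of all 310 tested genes with a CARE core, 155 rose and 80 fell.

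Among initiation and elongation factors, of 37 measured genes, 25 rose and 7 fell (median 0.27, [13, 11]). EIF2A, an alternative initiator (1.67 ± 0.06), EIF1, which guards start codon choice (1.28 ± 0.06), and EIF3F (0.81 ± 0.06) rose, and EEF2K, the kinase that halts elongation (-1.17 ± 0.07), EIF4EBP2 (-0.61 ± 0.06) and EIF4A1 (-0.92 ± 0.11) fell. In this list 4 genes rather than 7 fell without DMSO replicate 1 or 2, without rakicidin A replicate 1 or 2, without BE-43547A1 replicate 2 and with the 6 libraries alone.

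**Figure D4:**
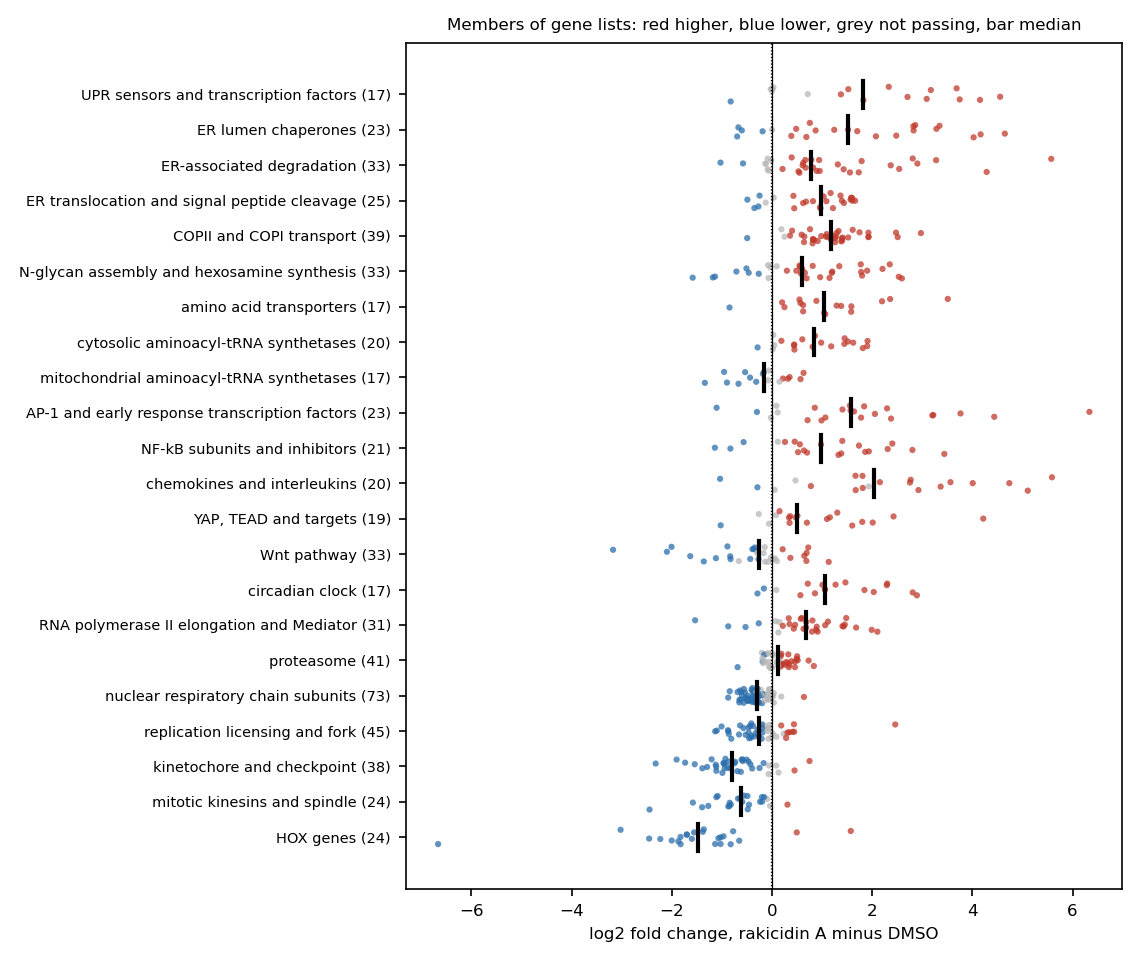
Log2 fold change of each measured member of 22 gene lists (number measured in parentheses), red for higher, blue for lower and grey for not passing, with a bar at the list's median and a dotted line at the median of all genes. Lists of the ER, of amino acid supply and of early response lie mostly right of 0, and those of mitosis and the HOX genes left of it. The HOX point farthest left, HOXA10, is at 0 counts with rakicidin A, so its position is not a measured size.

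Most early response factors rose, while FOS and JUNB fell. Of 23 measured genes, 18 rose and 2 fell (median 1.57, [17, 3]). After ATF3 and MAFF, FOSL2 rose from 86.2 ± 3.68 to 296 ± 5.48 CPM and MAFG from 42.3 ± 1.04 to 125 ± 5.64 CPM. FOS stood at 27.7, 24.9 and 22.8 CPM in the DMSO libraries and 11, 13.3 and 10.5 CPM in the rakicidin A libraries and fell (-1.11 ± 0.12), with no overlap, and JUNB fell by less (-0.30 ± 0.07). No Kruppel-like factor fell: of 12 measured genes, 11 rose and 0 fell (median 1.24, [10, 0]). KLF4 (2.79 ± 0.08), KLF5 (2.84 ± 0.10), KLF11 (1.33 ± 0.07) and KLF7 (1.30 ± 0.07) had the smallest p. Among MAP kinase phosphatases and feedback genes, of 20 measured genes, 15 rose and 3 fell (median 1.20, [14, 4]). DUSP1 rose from 88.6 ± 1.02 to 581 ± 11.3 CPM and DUSP16, a phosphatase of JNK, from 9.03 ± 1.16 to 56.8 ± 1.99 CPM, whereas DUSP2 (-1.99 ± 0.19) and the ETS factor ETV1 (-1.37 ± 0.16) fell. Of the EGF family, EREG (2.61 ± 0.08), NRG1 (2.25 ± 0.06) and the receptor gene EGFR (1.11 ± 0.06) rose with HBEGF, and ERBB2 fell (-0.71 ± 0.10). The other 2 of the 7 measured did not pass (median 1.11, [4, 2]).

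NF-kB genes rose on both sides of the pathway, subunits and inhibitors. Of 21 measured genes, 17 rose and 3 fell (median 0.98, [15, 3]). RELB (2.40 ± 0.06) and NFKB1 (1.93 ± 0.05) encode subunits, NFKBIB an inhibitor that holds them in the cytosol (2.31 ± 0.06) and TRAF1 an adaptor of TNF receptors (3.44 ± 0.08). TRAF1 stood at 9.26, 9.35 and 10.7 CPM in the DMSO libraries and 105, 107 and 107 CPM in the rakicidin A libraries. The kinase IKBKE (-0.83 ± 0.14) and the nuclear cofactor BCL3 (-1.14 ± 0.21) fell. Among chemokines and interleukins, of 20 measured genes, 15 rose and 2 fell (median 2.04, [15, 2]). IL11, of the interleukin 6 family, stood at 3.94, 3.7 and 4.75 CPM in the DMSO libraries and 66.5, 75.6 and 57.2 CPM in the rakicidin A libraries (4.01 ± 0.12), and LIF, of the same family, rose from 33.5 ± 2.46 to 228 ± 11 CPM. CCL28 (-1.04 ± 0.10) and CSF1 (-0.29 ± 0.07) fell. Their receptors went both ways: of 28 measured genes, 14 rose and 9 fell (median 0.17, [10, 15]). The death receptor TNFRSF10B (2.21 ± 0.06), TNFRSF12A (1.37 ± 0.08) and IL1RAP, the shared chain of interleukin 1 and 33 receptors (1.49 ± 0.08), rose. IL13RA1 (-0.61 ± 0.05) and IL11RA (-1.02 ± 0.13) fell, so IL11 and its receptor moved in opposite directions.

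Secreted stress factors rose apart from 2. Of 13 measured genes, 11 rose and 2 fell (median 1.27, [10, 2]). Adrenomedullin, ADM (1.34 ± 0.06), stanniocalcin 2, STC2 (1.17 ± 0.06), and the activin subunit INHBA (2.19 ± 0.12) rose. The other activin subunit INHBB (-1.35 ± 0.07) and the lipase inhibitor ANGPTL4 (-1.21 ± 0.07) fell.

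Among signalling pathways of development, Wnt genes fell more often than they rose, and BMP targets were among the falls. In the BMP and TGF-beta list, of 30 measured genes, 11 rose and 12 fell (median 0.05, [6, 17]). The ligands BMP6 (2.07 ± 0.06) and TGFB2 (1.16 ± 0.06) rose. The BMP targets and mediators ID2 (-1.85 ± 0.09), SMAD6 (-1.54 ± 0.08) and SMAD9 (-1.36 ± 0.09) fell with ID1. ID2 stood at 64.4, 63.4 and 52.8 CPM in the DMSO libraries and 16, 18.2 and 15.7 CPM in the rakicidin A libraries. In the Wnt pathway, of 33 measured genes, 7 rose and 14 fell (median -0.27, [5, 27]). The inhibitor DKK1 (1.13 ± 0.06), GSK3B (0.69 ± 0.06) and AXIN1 (0.64 ± 0.06) of the destruction complex rose. The coreceptor LRP5 (-1.12 ± 0.06), the receptor FZD4 (-1.36 ± 0.10) and FRAT1, an inhibitor of GSK3 (-3.17 ± 0.20), fell. Notch and hedgehog genes were even: of 20 measured genes, 7 rose and 7 fell (median 0.03, [4, 11]). Like those of the BMP and TGF-beta list, these shares were not far from those of all genes (32.7% higher and 33.7% lower). The Notch ligand DLL4 rose from 0.311 ± 0.0052 to 4.01 ± 0.529 CPM and the hedgehog factor GLI2 fell from 5.18 ± 1.07 to 1.24 ± 0.432 CPM. The Notch factor RBPJ (0.78 ± 0.07) rose, the ligands JAG2 (-0.87 ± 0.08) and DLL3 (-0.69 ± 0.08) and the hedgehog receptor PTCH1 (-1.55 ± 0.21) fell.

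Genes of YAP and TEAD, which read cell shape and tension, were mostly among the rises. Of 19 measured genes, 15 rose and 1 fell (median 0.51, [10, 5]). ANKRD1 stood at 5.01, 5.97 and 5.0 CPM in the DMSO libraries and 99.9, 97.9 and 98.9 CPM in the rakicidin A libraries (4.22 ± 0.08). The kinase LATS2, which restrains YAP (2.42 ± 0.07), CTGF (2.01 ± 0.06) and AMOTL2 (1.60 ± 0.06) rose, and TEAD2 fell (-1.03 ± 0.16). Calcium genes did not move as a block: of 30 measured genes, 16 rose and 8 fell (median 0.25, [11, 15]). Besides RCAN1, the calcineurin-driven factor NFATC2 (2.60 ± 0.08) and the ER calcium pump ATP2A2 (1.33 ± 0.07) rose. The ER calcium release channel ITPR1 stood at 211, 200.3 and 214 CPM in the DMSO libraries and 65, 69.9 and 65.9 CPM in the rakicidin A libraries and fell (-1.64 ± 0.06), with calmodulin gene CALM3 (-1.02 ± 0.06) and RCAN3 (-1.13 ± 0.08).

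Cell cycle genes went both ways at entry into S phase and fell in most cases in mitosis. Of the cyclins, inhibitors and E2F factors of the G1/S transition, among 27 measured genes, 11 rose and 10 fell (median -0.05, [8, 16]). CCND1 (cyclin D1) fell from 467 ± 4.04 to 259 ± 6.88 CPM, while CDK6 (0.74 ± 0.06), the inhibitor CDKN1B (p27, 0.80 ± 0.06) and the repressor E2F7 (from 40.5 ± 2.0 to 115 ± 1.8 CPM) rose. In replication, of 45 measured genes, 8 rose and 27 fell (median -0.26, [1, 37]). CDC7, the kinase that fires origins (-1.10 ± 0.07), GINS1 (-0.87 ± 0.06) and the reductase subunit RRM2 (-0.81 ± 0.06) fell. CDC6, which loads the replicative helicase, stood at 94.1, 103 and 96.7 CPM in the DMSO libraries and 544, 519 and 549.9 CPM in the rakicidin A libraries and rose (2.46 ± 0.07). Homologous recombination and Fanconi genes fell in 19 of 32 cases and rose in 4 (median -0.24, [1, 30]). They included XRCC2 (-0.86 ± 0.06), the kinase ATR (-0.81 ± 0.05), FANCL (-1.31 ± 0.09) and FANCF (-1.49 ± 0.10), with RAD50 higher (0.61 ± 0.06).

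For mitotic kinesins and spindle genes, of 24 measured genes, 1 rose and 21 fell (median -0.62, [0, 23]). KIF20A, a motor of cytokinesis, stood at 127, 129 and 122 CPM in the DMSO libraries and 25.6, 22.5 and 21 CPM in the rakicidin A libraries (-2.45 ± 0.08). HMMR (-1.58 ± 0.07), ASPM (-1.40 ± 0.06) and KIF15 (-1.09 ± 0.06), all of the spindle, fell. For the kinetochore and the spindle checkpoint, of 38 measured genes, 2 rose and 32 fell (median -0.79, [1, 36]). SPC24 and NDC80, of the complex that grips microtubules, fell from 48.5 ± 2.76 to 9.64 ± 0.886 CPM and from 104 ± 7.82 to 31.4 ± 0.806 CPM. The checkpoint kinase BUB1B (-1.54 ± 0.06) and cyclin A2, CCNA2 (-1.90 ± 0.07), fell too. UBE2C, which loads ubiquitin for the anaphase-promoting complex, rose (0.75 ± 0.05), and CENPO rose by 0.45 but not with total counts alone (0.09, adjusted p = 0.226). Replication-dependent histones went against these lists: of 18 measured genes, 13 rose and 2 fell (median 0.46, [5, 5]). The variants with smallest p were HIST1H2AE (0.77 ± 0.06), HIST2H2BE (0.82 ± 0.07) and HIST1H4E (0.79 ± 0.09), whereas the linker histones HIST1H1D (-0.74 ± 0.09) and HIST1H1B (-0.42 ± 0.05) fell. Histone genes are near-identical in places, so their reads may be misassigned, or left out as not uniquely aligned.

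Genes of stress-linked arrest and death held more rises than falls. Of p53 targets, among 23 measured genes, 13 rose and 6 fell (median 0.61, [12, 10]). The sestrin gene SESN2 rose from 19.6 ± 0.463 to 312 ± 7.65 CPM and GADD45A from 39.5 ± 2.31 to 747 ± 20.4 CPM. Both are also known as targets of ATF4. AEN (2.85 ± 0.06) and PMAIP1, the BH3 protein NOXA (2.78 ± 0.08), rose, and CCNG1 (-0.43 ± 0.07) and SESN1 (-0.34 ± 0.07) fell. In the BCL2 family and its neighbours, of 25 measured genes, 14 rose and 5 fell (median 0.60, [12, 10]). BCL2A1, a survival protein induced by NF-kB, rose from 14.9 ± 2.79 to 162 ± 4.0 CPM and BIRC2 from 566 ± 60.5 to 1944 ± 65.5 CPM. CASP8, the caspase of death receptors (-0.69 ± 0.06), and BOK (-0.35 ± 0.07) fell.

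With the composition scaling, oxygen sensing genes held more rises than falls, and those of glycolysis and the respiratory chain more falls than rises. Of the HIF subunits and oxygen sensors, among 14 measured genes, 8 rose and 3 fell (median 0.31, [5, 6]). HIF1A (1.28 ± 0.05), EPAS1 (HIF-2α, 0.74 ± 0.06) and the coactivator EP300 (1.22 ± 0.10) rose, and the prolyl hydroxylase EGLN3 (-1.16 ± 0.12) and HIF1AN (-0.45 ± 0.06) fell. Glycolysis genes fell in 14 of 25 cases and rose in 5 (median -0.16, [4, 20]), with the lactate exporter SLC16A3 lower (-0.96 ± 0.06). Of the nuclear-encoded respiratory chain, among 73 measured genes, 1 rose and 51 fell (median -0.31, [0, 70]). The complex I subunits NDUFV3 (-0.60 ± 0.06), NDUFB3 (-0.87 ± 0.09) and NDUFB1 (-0.84 ± 0.09) fell. The median of the list, -0.31, is smaller than the shift between the scalings. For the 13 mitochondrially encoded genes 0 rose and 8 fell, but 2 rose and 5 fell without DMSO replicate 3, the library with the highest mitochondrial share. Of those 13, 5 fell without rakicidin A replicate 1 or 2 and 2 fell with DESeq2.

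Import and folding in mitochondria went in both directions, in shares not far from those of all genes (32.7% higher and 33.7% lower). Of 37 measured genes, 15 rose and 13 fell (median 0.05, [9, 20]). TIMM44, which tethers the import motor, rose from 47.4 ± 0.556 to 173 ± 7.81 CPM, TIMM17A of the channel from 99.1 ± 9.82 to 359 ± 1.59 CPM and GRPEL2, a cochaperone of the motor, from 78.1 ± 6.25 to 234 ± 3.99 CPM. TIMM8A (-1.07 ± 0.09) fell. In the cytosol, of 29 measured genes, 11 rose and 13 fell (median -0.09, [6, 20]). HSPB8, a small heat shock protein of selective autophagy, rose from 1.1 ± 0.0597 to 14.2 ± 1.23 CPM, and the cochaperones DNAJB2 (1.29 ± 0.06) and DNAJB4 (1.14 ± 0.07) rose. HSPA2 fell with HSPA8 (-1.62 ± 0.10), while the HSP70 genes of the ER, HSPA5, and of mitochondria, HSPA9 (1.23 ± 0.06), rose; these directions hold with total counts alone.

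For autophagy, of 30 measured genes, 20 rose and 5 fell (median 0.51, [15, 9]). WIPI1 (2.67 ± 0.08), ATG13 (2.14 ± 0.07), GABARAPL1 (2.04 ± 0.08) and SQSTM1 (2.06 ± 0.06) rose, and VMP1 (-0.58 ± 0.06) and ATG10 (-0.75 ± 0.10) fell. For the lysosome, of 28 measured genes, 13 rose and 6 fell (median 0.23, [9, 14]). The proton pump subunit ATP6V0A1 (1.82 ± 0.06) and the lysosomal regulators MITF (1.73 ± 0.07) and TFE3 (from 18.1 ± 2.61 to 51.2 ± 2.64 CPM) rose. The proteasome rested on the scaling: of 41 measured genes, 19 rose and 3 fell (median 0.12, [3, 26]). PSMC4 (0.73 ± 0.05) and the activator PSME4 (0.83 ± 0.06) rose under both, and 8 rather than 3 fell without DMSO replicate 3. In lipid genes, ELOVL7 of fatty acid elongation rose from 3.3 ± 0.326 to 19.8 ± 2.03 CPM, LPIN2 (0.84 ± 0.06) and ACSL4 (0.84 ± 0.05) rose, and the list held 10 higher and 14 lower of 32 (median -0.09, [6, 21]). Cholesterol genes held 14 higher and 7 lower of 27 (median 0.17, [10, 13]), with NPC1 (1.06 ± 0.06) and HSD17B7 (1.08 ± 0.07) among the first.

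The lists of RNA polymerase II elongation and RNA decay rose in most members with either scaling. In those of splicing, ribosome biogenesis and chromatin, rises no longer outnumbered falls with total counts alone. For elongation by RNA polymerase II and Mediator, of 31 measured genes, 24 rose and 4 fell (median 0.68, [19, 7]). CDK7, the kinase of TFIIH, stood at 34.6, 34.6 and 29.7 CPM in the DMSO libraries and 143, 143 and 138 CPM in the rakicidin A libraries (2.10 ± 0.06). The elongation factors ELL (1.99 ± 0.07), ELL2 (1.43 ± 0.05) and AFF4 (1.45 ± 0.06) rose. HEXIM1, which holds the elongation kinase inactive together with RN7SK (-0.87 ± 0.17), and MED23 (-0.53 ± 0.07) fell. Among RNA decay regulators, of 31 measured genes, 24 rose and 2 fell (median 0.57, [17, 8]). BTG1 (2.53 ± 0.08), the decapping factor DCP1A (1.90 ± 0.07), ZC3H12C (1.77 ± 0.06) and CNOT1 of the deadenylase complex (0.94 ± 0.05) rose. The 2 lower genes, ZFP36 (-0.41 ± 0.14) and SMG6 (-0.20 ± 0.07), became 1 with DESeq2 (ZFP36 -0.39, adjusted p = 0.144) and without DMSO replicate 3 or rakicidin A replicate 1, and 0 without rakicidin A replicate 3. For splicing factors and their kinases, of 32 measured genes, 19 rose and 8 fell (median 0.27, [9, 16]), so the majority turned with the scaling. Of the CLK kinases CLK2 fell (-0.26 ± 0.09), but did not pass without DMSO replicate 3 (-0.16, edgeR adjusted p = 0.0936) or without rakicidin A replicate 1 or 3 (-0.23 and -0.24, edgeR adjusted p = 0.0677 and 0.0550). CLK1 rose from 94.2 ± 4.94 to 296 ± 5.76 CPM, CLK3 from 35.5 ± 2.31 to 85.6 ± 2.06 CPM and CLK4 from 35.8 ± 1.61 to 72.7 ± 0.977 CPM, and the splicing factors SRSF5 (-0.61 ± 0.06) and SRSF2 (-0.51 ± 0.06) fell. Ribosome biogenesis held 19 higher and 5 lower of 33 (median 0.35, [12, 12]), with GNL2 higher (1.81 ± 0.06) and UBTF, the activator of RNA polymerase I, lower (-1.31 ± 0.06). Of the chromatin enzymes, 21 of 44 rose and 13 fell (median 0.15, [17, 23]). The histone demethylase KDM6A rose from 33.9 ± 1.74 to 195 ± 6.69 CPM, HDAC9 from 23.3 ± 2.96 to 137 ± 4.0 CPM and JHDM1D from 32.5 ± 2.33 to 149 ± 8.52 CPM, and the DNA methyltransferase DNMT3A fell (-1.15 ± 0.13).

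Most clock genes rose. Of 17 measured genes, 14 rose and 2 fell (median 1.06, [14, 2]). NFIL3, a repressor of clock output, stood at 23.1, 20.3 and 25.1 CPM in the DMSO libraries and 172, 172 and 166 CPM in the rakicidin A libraries (2.89 ± 0.07). The negative arm of the clock rose in PER2 (2.30 ± 0.06), CRY1 (1.46 ± 0.06) and NR1D2 (1.84 ± 0.06). The positive factor CLOCK (-0.16 ± 0.05) and the repressor BHLHE41 (-0.29 ± 0.08) fell, and 1 of them without rakicidin A replicate 1 or 2 or with no filter on low counts.

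HOX genes, which keep the positional identity of cells, fell in most cases. Of 24 measured genes, 2 rose and 22 fell (median -1.47, [1, 22]). HOXB6 stood at 51.6, 49 and 60.7 CPM in the DMSO libraries and 15.7, 14.9 and 13.4 CPM in the rakicidin A libraries (-1.87 ± 0.09), HOXB3 fell from 41.2 ± 7.24 to 11.6 ± 0.303 CPM and HOXB7 from 53.4 ± 3.5 to 25.4 ± 1.17 CPM. HOXB9, in the same cluster, stood at 55.3, 56.3 and 64.1 CPM in the DMSO libraries and 174, 179 and 169 CPM in the rakicidin A libraries and rose (1.57 ± 0.06). HOXA10 had 37 counts over the DMSO libraries and 0 with rakicidin A, at least 10.2-fold lower against a floor of 3 counts over the group, which covers counting error only. Of 9 measured protocadherins, 0 rose and 6 fell (median -0.70, [0, 8]), with PCDH18 from 8.28 ± 0.714 to 0.854 ± 0.285 CPM and PCDHB2 from 3.98 ± 0.221 to 1.18 ± 0.11 CPM.

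Among long noncoding RNAs falls outnumbered rises. By the types of a later GENCODE release, of 12685 protein-coding genes 4739 rose and 4557 fell. Of 626 long intergenic noncoding RNAs 149 rose and 295 fell (median -0.51). Among those named LINC, of 94 measured genes, 15 rose and 49 fell (median -0.37, [13, 61]). For antisense transcripts by name, of 291 measured genes, 45 rose and 137 fell (median -0.48, [27, 179]); whether the counting used strand is not given in the sources used here, so reads of an antisense gene and its partner may not be separate. For microRNA host genes, of 12 measured genes, 3 rose and 8 fell (median -0.62, [3, 9]), and of 22 transcripts from bidirectional promoters 3 rose and 14 fell (median -1.10). Host genes of small nucleolar RNAs stood against this: of 13 measured genes, 8 rose and 1 fell (median 0.52, [7, 3]). Of all genes under 1 CPM, 734 rose and 1039 fell, and the part of level in these counts was not tested.

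Genes of cell shape and contact went both ways. Of the EMT regulators and cadherins, among 19 measured genes, 9 rose and 7 fell (median 0.10, [6, 8]), so the majority turned with the scaling. The tight junction genes CLDN1 (2.46 ± 0.06) and OCLN (1.24 ± 0.08) rose, and so did ZEB1, a repressor of epithelial genes (0.83 ± 0.06), while the epithelial splicing factor ESRP2 fell (-1.17 ± 0.09). Among matrix proteases, of 25 measured genes, 13 rose and 8 fell (median 0.24, [9, 11]). ADAM17, the sheddase that releases TNF and HBEGF, rose from 136 ± 4.61 to 495 ± 17.8 CPM and MMP1 from 2.84 ± 0.47 to 28.4 ± 2.81 CPM, and MMP16 (-1.43 ± 0.08) and ADAM19 (-1.26 ± 0.10) fell. Among collagens and laminins, of 27 measured genes, 8 rose and 10 fell (median -0.01, [6, 16]). The laminin chain LAMB3 (2.74 ± 0.10) rose with the collagens COL6A1 (1.30 ± 0.08) and COL6A2 (1.25 ± 0.07). In the cytoskeleton, of 29 measured genes, 15 rose and 10 fell (median 0.21, [8, 15]), and 6 rather than 10 fell without rakicidin A replicate 2. TUBB2B (1.91 ± 0.07), TAGLN (2.18 ± 0.12) and VCL (0.72 ± 0.05) rose, and TUBA1B (-0.56 ± 0.06) and TUBB4B (-0.59 ± 0.06) fell with TUBB.

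The genes with the largest changes were set against BE-43547A1, whose dose (41 nM) differed slightly. This was the 1 pair of compounds, the test uses their means and not that of DMSO, and p-values were adjusted over all features. Over all genes 8791 (48.5%) differed between the compounds, 5119 higher with rakicidin A (28.2%) and 3672 lower (20.3%). Of the 30 genes 22 differed, 12 of the rises and 10 of the falls. Rakicidin A was the farther from DMSO in 11 of them and BE-43547A1 in 11. The 30 genes were picked by their change with rakicidin A, whose libraries also enter this test. That choice can tilt these counts, toward rakicidin A lying farther from DMSO. RAB39B reached 48.3, 41.6 and 50.7 CPM with rakicidin A and 11 ± 0.841 CPM with BE-43547A1, a difference of 2.10 ± 0.09 (edgeR adjusted p = 1.66e-11). DNAJB9, at 373 ± 36.9 CPM with BE-43547A1 (0.85 ± 0.07), and HBEGF, at 127 ± 5.64 CPM (0.64 ± 0.06), were also higher with rakicidin A. The order was the opposite for CCL20, at 39.2 ± 2.84 CPM with BE-43547A1 (-1.20 ± 0.09), DUSP8, at 48.8 ± 4.83 CPM (-0.99 ± 0.10), and IL8, at 571 ± 52.8 CPM (-0.85 ± 0.07). Among the falls SKIDA1, at 1.36 ± 0.236 against 2.7 ± 0.343 CPM, and TSHZ1 (-0.86 ± 0.16) were lower with rakicidin A. For the 8 genes that did not pass, the intervals of the difference were at their narrowest for RCAN1 (-0.02 to 0.19) and ATF3 (-0.22 to 0.03), and at their widest for DGAT2 (-1.27 to 0.07), an interval that holds differences of more than 1. FOS lay at 109.7 ± 19.6 CPM with BE-43547A1, 2.13 against DMSO, and differed between the compounds by -3.23 ± 0.12 (edgeR adjusted p = 1.47e-11). HSPA8 lay at 2081 ± 199 CPM with BE-43547A1, a difference of -0.99 ± 0.07 (edgeR adjusted p = 3.78e-09).

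**Figure D5:**
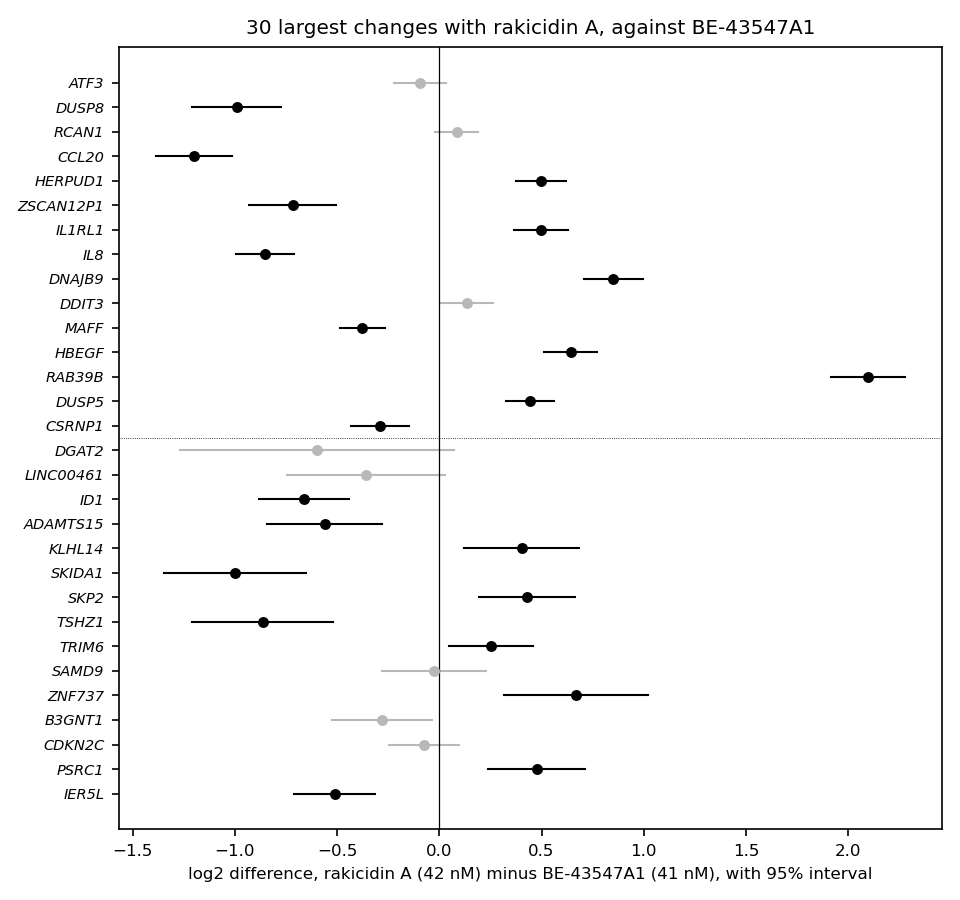
Log2 difference between rakicidin A (42 nM) and BE-43547A1 (41 nM) for the 15 largest rises (above the dotted line) and 15 largest falls with rakicidin A, each with its 95% interval, black where the adjusted p is below 0.05 and grey otherwise. RAB39B lies farthest right, at 2.10, and CCL20 farthest left, at -1.20.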

How the data were processed

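Total RNA of 9 PANC-1 libraries was sequenced, and the authors deposited HTSeq counts per feature of a merged catalogue. TopHat2, HTSeq and the build GRCh37 (hg19) are named per the submitters' processing notes. Rows of reads without a feature (16.4 to 20.8% of records in the 6 libraries) were left out of sizes and tests. So were those not uniquely aligned (19.1 to 22.4%) and those ambiguous between features (2.75 to 2.94%). Whether the counting used strand is not given in the sources used here.

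Counts were fitted with edgeR 4.0.16 in R 4.3.3 (TMM scaling, filterByExpr, quasi-likelihood test, 1 mean per group, all 9 libraries, 6 residual degrees of freedom), with Benjamini-Hochberg adjustment over 22353 features and a threshold of 0.05. The script was tested on simulated data with 200 changed of 22353 features, the changed ones drawn from those with more counts. It recovered 65.2% of changes of 0.5, 88.1% of 1 and 100% of 2 on the log2 scale, with 15 false calls. There nearly all features were unchanged, whereas 66.4% of genes passed here, so these rates do not carry over to the data. Alternatives used DESeq2 1.42.0, limma-voom 3.58.1, other scalings and filters, a replicate block and each library left out.

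Genes named are the 15 largest rises and falls without overlap reaching 10 CPM, the 10 largest gains and losses in mean CPM, up to 4 members of each list with the smallest p and up to 2 passing against its median, the 5 most abundant genes with an interval within -0.25 to 0.25, and the 5 largest differences between the compounds among the first. Others, such as those of promoter matches, were chosen after their values were seen. The 70 lists hold 1760 entries, of which 1756 matched and 1623 were measured. Some genes of this rule are not reported here. The comparison and the lists were chosen with earlier results of these data known. CPM values were computed from the deposited counts. Promoter windows (250 bases before to 50 after a listed start) are those of RefSeq on GRCh38.p14. They were matched by the current symbol of the gene identifier, or else by the symbol given. Of 18067 tested symbols 11221 matched, to 11218 distinct promoter entries.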

Additional observations from a re-analysis of the deposited data

Results flagged for a closer look

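The count table also holds features outside GENCODE that the comparison did not use, and some were higher with rakicidin A than with DMSO by edgeR's quasi-likelihood test. Of 4146 tested transcripts of the MiTranscriptome catalogue of long human transcripts, 1197 were higher, 920 of them by at least 1 on the log2 scale, and 1184 were lower. Of 45 tested transfer RNA predictions, 5 were higher and 14 lower. Of 29 tested Rfam entries, 6 were higher and 7 lower. Of 7 tested microRNA precursors from a catalogue other than miRBase, 1 was higher and 3 were lower. These features can overlap GENCODE genes, and their part in the counts of those genes was not tested.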

How the results depend on the processing

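The number of genes passing lay between 11289 and 13393 over all 17 alternatives, and between 11289 and 12196 with 1 library left out, against 12038. Changes of at least 1 lay between 4045 and 5165, and between 4355 and 4570 with 1 library left out, against 4327. DESeq2 passed 11402 genes, limma-voom 11913, RLE size factors 12021, no filter on low counts 12327 and the 6 libraries alone 11585. Of the 30 genes compared with BE-43547A1, 20 to 24 differed, under alternatives chosen for that comparison after seeing the data. Of 325 named genes none that passed changed direction. With total counts alone 4 were lost (AKAP12, CENPO, RN7SK and TMEM120A), and 59 of 134 counts over lists moved by over 1.5 times. With the replicate block 11978 genes passed, and KDELR3 was the 1 named gene whose call changed (0.26, adjusted p = 0.0479 by edgeR). Same-numbered libraries of the groups did not deviate together (correlations -0.0071, 0.0044 and -0.0047), so the numbers are not taken to pair them. SDF2, lower in the report, did not pass with RLE size factors (-0.17, adjusted p = 0.0613 by edgeR), limma-voom (-0.18, adjusted p = 0.0594), no filter (-0.20, edgeR adjusted p = 0.0521), the 6 libraries alone (-0.17, edgeR adjusted p = 0.0914) or without any single library but DMSO replicates 2 and 3. CLOCK was lost without rakicidin A replicate 1 (-0.12, edgeR adjusted p = 0.106) or 2 and with no filter. The cause was not tested. With 3 libraries a group, changes near 0.5 can be missed. Of genes with an estimated change of 0.5 to 1 in size, 727 did not pass, beside 1973 higher and 2114 lower.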
